A study of Mus musculus with 20 samples.

Results

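The 9 genes described here encode the renin-angiotensin system of the mouse kidney and the membrane peptidases that make and break angiotensin peptides. They are Ren1, Agt, Ace, Agtr1a, Agtr1b, Enpep, Mme, Anpep and Atp6ap2. They were chosen by symbol, and all 9 were found among the 55822 genes of the table. Renin, an aspartyl protease released by juxtaglomerular cells of the afferent arteriole, cuts angiotensinogen to angiotensin I. Angiotensin-converting enzyme trims angiotensin I to angiotensin II, which raises vascular tone and sodium reabsorption through the type 1 angiotensin receptor. In the proximal tubule these peptides are then shortened by ectoenzymes of the brush border, the microvillous surface that faces the filtrate.

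Poly(A) RNA of whole kidney was sequenced from male C57BL/6J mice, a widely used inbred strain, aged 8 weeks. The control group received phosphate-buffered saline (PBS) and the treated group received puberulic acid, a tropolone made by some Penicillium moulds, at 1 mg per day. Both groups had 6 daily administrations, and kidneys were taken on day 7. On the route the labels differ: oral in one field, gavage or intraperitoneal injection in another. Each group has 5 libraries. The labels do not state that each library is a separate mouse, so p-values measure the spread between these libraries. The series also holds 2 groups given a normal or a toxic lot of the supplement Choleste-Help at 1000 mg per day. The names of 10 further columns do not show which lot they hold, so those columns are not used here.

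Libraries held 18409877 to 24705587 estimated counts. Levels are given as CPM, counts scaled to a common library total and then by trimmed mean of M-values (TMM) factors. These ran from 0.827 to 0.848 for control libraries and from 1.17 to 1.26 for treated ones. Scaling to total counts instead moved the median over all tested genes, on the log2 scale, from 0.05 to 0.56, so directions are relative to the scaling. Markers of the proximal tubule marked these libraries as kidney, with summed levels of 8988 to 12856 CPM in controls. With puberulic acid the same sum was 1427 CPM in replicate 1 and 559.1 to 737.5 CPM in replicates 2 to 5. Puberulic acid replicate 3 also carried markers of adrenal cortex, at a summed 54.4 CPM against 0.342 to 3.44 CPM in the other 9 libraries. Adipocyte markers summed to 413.3 CPM in that library and to 23.5 to 59.5 CPM elsewhere.

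Of the 9 genes, 8 had enough counts to be tested. In a quasi-likelihood test (edgeR, Benjamini-Hochberg adjustment over the 16266 genes tested), 5 of the 8 were lower with puberulic acid and 0 were higher. Among all tested genes, 31.1% were called lower and 34.2% higher, and 65.3% were called in either direction, against 62.5% of the tested members. The 5 that fell were Ace, Anpep, Agtr1a, Enpep and Atp6ap2. Their CPM ranges did not overlap between the groups, as was the case in this direction for 24.0% of all tested genes and in either direction for 50.1%. Ren1, Agt and Mme did not pass the test. The median log2 fold change was -1.30 over the 8 members and 0.05 over all tested genes. With 1 library left out at a time, the number of members called lower ran from 5 to 7. All genes called lower in those fits ran from 4881 to 5395, with 16411 to 16799 genes tested. With total-count scaling 4 members were called lower, where 15.5% of all genes were. Agt was the 1 member called higher, where 56.4% of all genes were. Calls in either direction then made up 72.0% of all genes.

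**Figure D1:**
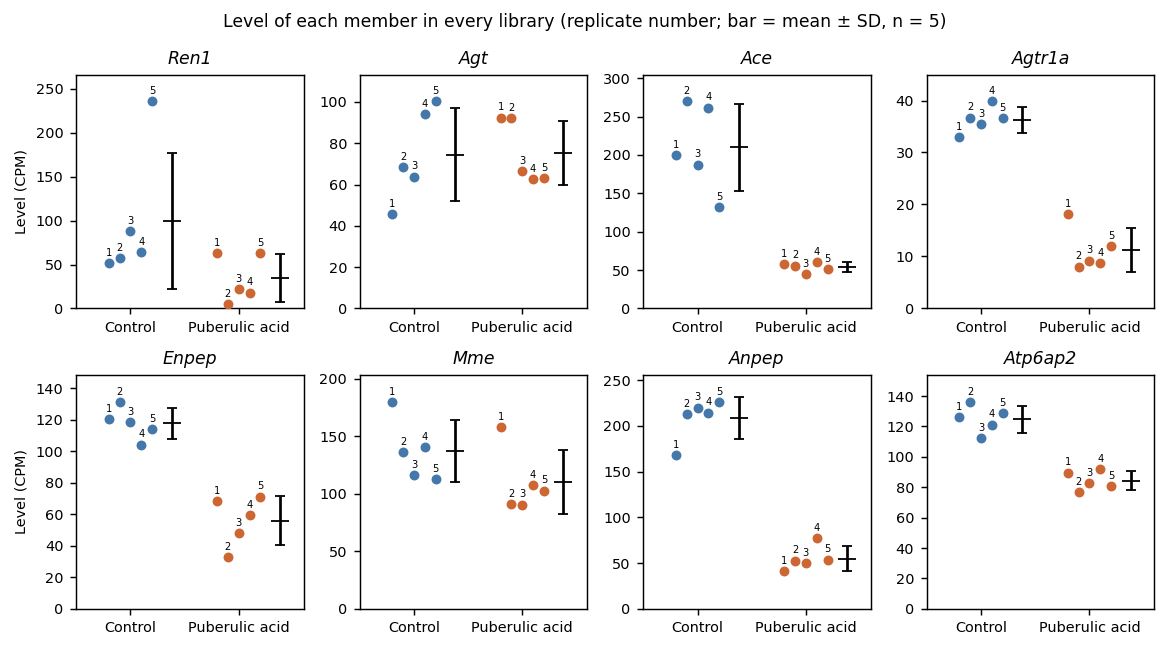
Level of each of the 8 tested members (CPM, linear axis from 0) in the 5 control and 5 puberulic acid libraries, with the replicate number above each point and a bar for the mean ± SD. The groups are apart for Ace, Agtr1a, Enpep, Anpep and Atp6ap2, and they overlap for Ren1, Agt and Mme.

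Agt (ENSMUSG00000031980) encodes angiotensinogen, the serpin-like precursor that the liver supplies to blood and that proximal tubule cells and fat also make. The stretch of its coding sequence that holds angiotensin is shown because Ren1, Ace, Enpep, Mme and Anpep encode enzymes that act on this peptide, its precursor or its products. It comes from the GENCODE M21 mouse transcripts. The codons of angiotensin II are in capitals and the last codon pair of angiotensin I, which converting enzyme removes from the peptide, is in lower case.
Agt: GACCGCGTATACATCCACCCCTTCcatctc

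Agt was at 45.9, 68.4, 63.9, 94.0 and 100.3 CPM in control replicates 1 to 5. With puberulic acid it was at 92.4, 92.1, 66.5, 62.6 and 62.9 CPM. All 5 treated values lay inside the range of the controls, and puberulic acid replicates 1 and 2 stood above the other 3. The means were 74.5 ± 22.4 and 75.3 ± 15.5 CPM (SD over n = 5 per group), with a log2 fold change of 0.02 ± 0.21 (SE, edgeR adjusted p = 0.951). Its direction was not fixed: the fitted value fell below 0 in 5 of the 10 fits that left out 1 library. Total-count scaling gave 0.52 (edgeR adjusted p = 0.0378), close to the 0.56 of the median gene under that scaling. Adipocytes express Agt, and the library with adipocyte markers, puberulic acid replicate 3, had 66.5 CPM. Without it the log2 fold change was 0.05.

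Ren1 (ENSMUSG00000070645) encodes renin, whose release is the controlled step of the system. Its levels were 51.3, 57.6, 88.0, 63.8 and 235.8 CPM in control replicates 1 to 5. The treated libraries, replicates 1 to 5, had 63.2, 4.73, 22.2, 18.1 and 63.3 CPM. Control replicate 5 stood far above the other controls, and puberulic acid replicate 2 was the lowest of the 10 libraries. Puberulic acid replicates 1 and 5 lay within the control range and replicates 2, 3 and 4 below it. Among the 8 tested members Ren1 had the widest spread, with a coefficient of variation of 78.1% in controls and 79.3% with puberulic acid. The highest library was 4.60 times the lowest in controls and 13.4 times the lowest with puberulic acid, from 111 to 1971 counts.

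The Ren1 means were 99.3 ± 77.5 and 34.3 ± 27.2 CPM (SD over n = 5 per group). The log2 fold change was -1.53 ± 0.63 (SE), and the edgeR adjusted p of 0.0501 sat at the 0.05 threshold. The 19 alternatives, of which 10 left out 1 library, moved it to either side, from an edgeR adjusted p of 0.0123 to 0.178. Without control replicate 5 the log2 fold change was -0.93 (edgeR adjusted p = 0.178), and with total-count scaling it was -1.003 (edgeR adjusted p = 0.17). The adjusted p fell under the threshold without control replicate 1 (0.0402), without control replicate 2 (0.0485), without puberulic acid replicate 1 (0.0250) and without puberulic acid replicate 5 (0.0313). With those libraries left out, the log2 fold changes were -1.70, -1.68, -1.90 and -1.90.

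Ren1 was set beside markers of podocytes and endothelium, cells of the glomeruli and vessels beside which juxtaglomerular cells lie. Podocytes, the filtration cells of the glomerulus, and endothelium were each read from 6 markers. Of these 12 genes, 10 were at their lowest of all 10 libraries in puberulic acid replicate 2, the library with the least Ren1. In controls, 10 of the 12 were highest in replicate 5, the library with the most Ren1. These libraries were picked by their Ren1 level, and the share of all tested genes with such extremes was not counted. Podocyte markers summed to 127.9 CPM in puberulic acid replicate 2 and to 333.6 to 465.5 CPM in the other 4, against 240.8 to 518.5 CPM in controls. Endothelial markers summed to 91.8 CPM in puberulic acid replicate 2, to 143.2 to 244.1 CPM in the other 4 and to 183.7 to 300.4 CPM in controls. Mesangium and mural sums were not below the controls in puberulic acid replicate 2. There, mesangium markers summed to 107.1 CPM, against 85.1 to 111.3 CPM in controls and 132.7 to 204.9 CPM in the other treated libraries. Mural markers without Ren1 summed to 422.4 CPM, against 162.9 to 287.0 CPM in controls. With Acta2 and Tagln also left out, that sum was 130.6 CPM, against 128.3 to 196.1 CPM. In bulk RNA, fewer cells of a type and less RNA per cell cannot be told apart.

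**Figure D2:**
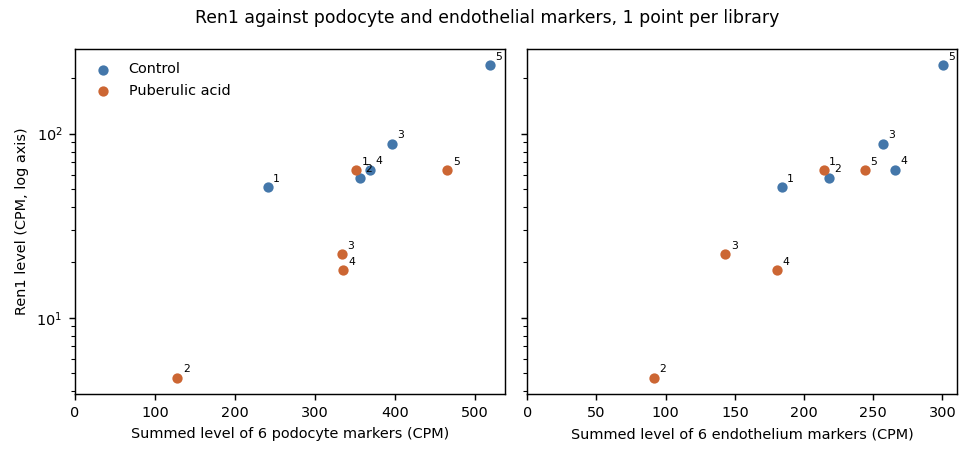
Ren1 level (CPM, log axis) against the summed level of 6 podocyte markers (left) and 6 endothelial markers (right, both CPM, linear axes), 1 numbered point per library. Puberulic acid replicate 2 has the lowest Ren1 (4.73 CPM) and the lowest sums, and control replicate 5 has the highest Ren1 (235.8 CPM) and the highest sums.

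Dividing Ren1 by the podocyte and endothelial sums within each library, a step chosen after the values were seen, gave the following differences. The log2 ratio of Ren1 to podocyte markers was -2.63 to -1.14 in controls and -4.76 to -2.47 in treated libraries. Its mean differed by -1.51 (n = 5 per group, exact two-sided permutation p = 0.0238, adjusted over 2 ratios 0.0476). That adjusted p was 0.0635 to 0.111 with any 1 of the 5 controls or puberulic acid replicate 2 left out, and the difference in those fits was -1.63 to -1.23. The log2 ratio to endothelial markers was -2.06 to -0.35 in controls and -4.28 to -1.76 in treated libraries. Its difference of -1.26 did not pass (n = 5, exact two-sided permutation p = 0.0635, adjusted 0.0635), and the adjusted p was 0.0159 without puberulic acid replicate 1 and 0.0397 without puberulic acid replicate 5. The difference was -0.89 without puberulic acid replicate 2 (adjusted exact permutation p = 0.119) and -0.96 without control replicate 5 (adjusted exact permutation p = 0.111). The groups overlapped on both ratios.

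By the measure of likeness used, Pearson's r of deviations from the group means over the 10 libraries, Ren1 was most like Rgs5 (r = 0.97), Sparcl1 (0.95) and Flt1 (0.95) among 11606 genes. Rgs5 encodes a regulator of G-protein signalling found in pericytes and renin cells, and Flt1 is a vascular endothelial growth factor receptor. Rgs5 itself fell, from 50.7 ± 11.4 to 30.7 ± 11.7 CPM (SD over n = 5 per group), with a log2 fold change of -0.72 (edgeR adjusted p = 0.0273), a call lost with total counts (-0.21, edgeR adjusted p = 0.506). Agt was most like Ninj1 (0.97), Gpr89 (0.96) and Cdhr5 (0.95). These are the highest values among many genes over few libraries, and the libraries share depth and composition, so they describe these samples only.

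Of 25 listed genes of renin cells and renin control, 24 were tested, 10 were called higher and 7 lower, with a median log2 fold change of -0.22. The shares among all tested genes were 34.2% higher and 31.1% lower, so the list as a whole sat near the background. With total counts 10 were called higher and 3 lower, where 56.4% and 15.5% of all genes were. Ptgs2, which encodes the prostaglandin synthase COX-2 of the macula densa, rose from 0.221 ± 0.129 to 10.5 ± 3.66 CPM (SD over n = 5 per group), a log2 fold change of 5.56 ± 0.49 (SE, edgeR adjusted p = 1.52e-06). The control mean is close to a floor of 3 counts (0.0964 to 0.195 CPM here), so the size of this change is poorly fixed. Bulk RNA does not show which cells it came from. Ptger4, a receptor for the prostaglandin E2 made from the product of COX-2, rose by a log2 fold change of 1.5 (edgeR adjusted p = 0.000255). Kcnj8, an ATP-sensitive potassium channel subunit of mural and renin cells, fell by 1.40 on the log2 scale (edgeR adjusted p = 0.000181). Vdr, the vitamin D receptor, fell by 1.30 (edgeR adjusted p = 1.04e-05). Akr1b7, an aldo-keto reductase of renin cells picked out after its values were seen, was at 3.37 ± 1.09 CPM in controls and, with puberulic acid, 3.34 ± 1.30 CPM (SD over n = 5 per group). Its log2 fold change was -0.01 (edgeR adjusted p = 0.979).

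Ace (ENSMUSG00000020681) encodes angiotensin-converting enzyme, a zinc peptidyl-dipeptidase of endothelium and of the proximal brush border. Its levels in control replicates 1 to 5 were 199.5, 269.6, 187.5, 261.5 and 132.1 CPM. The treated libraries, replicates 1 to 5, had 57.8, 55.9, 45.1, 60.8 and 51.1 CPM. All treated libraries lay below every control, and they were more alike than the controls, among which replicate 5 was lowest. Mean levels of 210.0 ± 56.8 CPM (control) and 54.1 ± 6.18 CPM (treated, SD over n = 5 per group) were 3.88-fold apart, a log2 fold change of -1.96 ± 0.18 (SE, edgeR adjusted p = 2.03e-06). Replicate 1, which held the most proximal tubule signal of the treated group, was second in that group for Ace, behind replicate 4.

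Anpep (ENSMUSG00000039062) encodes aminopeptidase N, which removes neutral residues from the amino end of peptides, angiotensin III among them. It was at 168.2, 212.8, 219.9, 214.5 and 226.3 CPM in control replicates 1 to 5. With puberulic acid it was at 40.8, 52.6, 50.3, 77.0 and 53.8 CPM. No treated library came near the lowest control, which was replicate 1, and puberulic acid replicate 1 was the lowest of all. Mean levels of 208.3 ± 23.0 CPM (control) and 54.9 ± 13.4 CPM (treated, SD over n = 5 per group) were 3.8-fold apart, a log2 fold change of -1.92 ± 0.16 (SE, edgeR adjusted p = 7.62e-07).

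Enpep (ENSMUSG00000028024) encodes aminopeptidase A, which removes the acidic first residue of angiotensin II. Its levels were 120.5, 131.4, 118.8, 104.2 and 113.8 CPM in control replicates 1 to 5. With puberulic acid they were 68.2, 33.0, 48.1, 59.4 and 71.3 CPM. The groups did not overlap, and the treated libraries were spread more widely, with replicate 2 lowest. Mean levels of 117.7 ± 9.94 CPM (control) and 56.0 ± 15.7 CPM (treated, SD over n = 5 per group) were 2.10-fold apart, a log2 fold change of -1.07 ± 0.18 (SE, edgeR adjusted p = 0.00022). With total-count scaling the fitted log2 fold change was -0.56 (edgeR adjusted p = 0.0165).

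Mme (ENSMUSG00000027820) encodes neprilysin, a zinc endopeptidase of the brush border and of podocytes that degrades angiotensin, natriuretic and other peptides. It was at 180.2, 136.0, 116.1, 140.5 and 113.1 CPM in control replicates 1 to 5. With puberulic acid it was at 157.9, 90.9, 90.7, 107.4 and 102.8 CPM. Puberulic acid replicate 1 lay among the controls, and the other 4 treated libraries lay below all controls. The means were 137.2 ± 26.8 and 109.9 ± 27.8 CPM (SD over n = 5 per group), and the log2 fold change of -0.32 ± 0.17 (SE) did not pass the test (edgeR adjusted p = 0.122). Without puberulic acid replicate 1 it was -0.51 (edgeR adjusted p = 0.00541), and with total-count scaling its sign turned, to 0.19 (edgeR adjusted p = 0.326).

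Ace, Enpep, Mme and Anpep, of which Enpep and Anpep belong to the same aminopeptidase family, share a zinc-binding site, in which a pair of histidines on either side of a glutamate hold the metal. The codons of that site are shown to set the enzymes that fell beside neprilysin, which carries the same kind of site. Angiotensin-converting enzyme has it in both of its catalytic domains. The capitals mark the codons of the site, from the GENCODE M21 transcripts, with a codon pair on each side in lower case.
Ace, first domain: gtacacCACGAGATGGGCCACgtgcag
Ace, second domain: gcgcacCACGAAATGGGCCACatccag
Enpep: gttgccCACGAACTTGTACACcagtgg
Anpep: attgctCACGAGCTGGCCCATcagtgg
Mme: attggaCATGAAATCACACATggattt

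The peptidases did not change to the same extent. Ratios between them within a library do not depend on scaling, and 7 ratios chosen after the values were seen were each given an exact permutation test, two-sided, over the 252 ways to assign the libraries. The smallest p these allow is 0.00794. The differences follow from the fold changes given above and were chosen with these known, so the p-values are descriptive only. Mme gained on Anpep in every treated library: the log2 ratio of Mme to Anpep counts was -1.0 to 0.10 in controls and 0.48 to 1.95 in treated libraries. The mean difference was 1.62 (n = 5 per group, exact permutation p = 0.00794, adjusted over 7 ratios 0.0278). Ace lost ground to Mme by 1.59 on the log2 scale, from a range of 0.15 to 0.99 to a range of -1.45 to -0.70 (exact permutation p = 0.00794, adjusted 0.0278). Without puberulic acid replicate 1, the adjusted p of both was 0.0556 and the differences were 1.38 and -1.47.

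Ace and Anpep kept nearly the same ratio, with a difference of 0.03 on the log2 scale that did not pass (n = 5, exact permutation p = 0.921) and overlapping ranges of -0.78 to 0.34 and -0.34 to 0.50. Enpep stood between: its log2 ratio to Mme changed by -0.79 (n = 5, exact permutation p = 0.0159, adjusted 0.0278) and its ratio to Anpep by 0.83 (n = 5, exact permutation p = 0.0159, adjusted 0.0278). The log2 ratio of Ace to Enpep changed by -0.80 (n = 5, exact permutation p = 0.0317, adjusted 0.0444). On these 3 ratios the groups overlapped. With 1 library left out, their adjusted p rose to between 0.0556 and 0.0741 while the differences stayed near these sizes. For Enpep to Mme this was so without control replicates 2, 3 or 4 or puberulic acid replicate 1 (-0.85 to -0.73). For Enpep to Anpep it was so without any of those or control replicate 5 (0.64 to 0.86). For Ace to Enpep it was so without control replicates 1 to 4 or puberulic acid replicates 1, 3, 4 or 5 (-0.83 to -0.66).

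**Figure D3:**
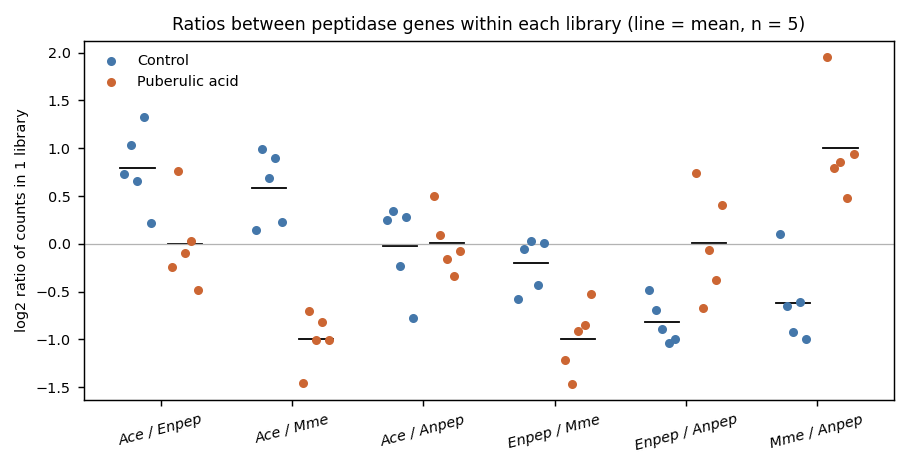
Log2 ratio of the counts of 2 peptidase genes within each library, for 5 control and 5 puberulic acid libraries, with a line at each group mean. Mme to Anpep and Ace to Mme separate the groups, while Ace to Anpep is centred near 0 in both.

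Other peptidases of the tubule fell too. Of 15 brush border and tubular peptidase genes listed, 13 were tested and all 13 were called lower, with a median log2 fold change of -2.29, against 31.1% of all tested genes called lower. Acy3, an aminoacylase, went from 2740 ± 654 to 275.9 ± 61.2 CPM (SD over n = 5 per group), a log2 fold change of -3.31 (edgeR adjusted p = 1.37e-07). Dpep1, a membrane dipeptidase, was at 132.6 to 229.1 CPM in controls and 10.7 to 31.5 CPM in treated libraries, a log2 fold change of -3.27 (edgeR adjusted p = 1.41e-06). The smallest of these declines was that of Dpp4, dipeptidyl peptidase IV, at -0.25 (edgeR adjusted p = 0.0425), a gene picked out after its values were seen. With total counts 11 of the 13 were called lower, where 15.5% of all genes were, and Dpp4 was called higher (0.26, edgeR adjusted p = 0.0365). The 10 markers of the proximal tubule were all called lower, with a median log2 fold change of -3.27, so the declines of Ace, Anpep and Enpep were smaller than that median. The part of tubule cell content in these values was not tested.

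Cells other than tubule also express some of these enzymes. Myeloid cells carry aminopeptidase N, and 5 of 7 tested macrophage and myeloid markers were called higher, where 34.2% of all tested genes were (with total counts, 7 of 7 and 56.4%). They had summed levels of 78.1 to 175.2 CPM in controls and, in treated libraries, 166.3 to 522.1 CPM. Podocytes carry neprilysin, and 1 of 6 podocyte markers was called lower and 0 higher, where 31.1% and 34.2% of all tested genes were. With total counts 0 of the 6 were lower and 2 higher, where 15.5% and 56.4% of all genes were. Lymphocyte markers summed to between 2.60 and 5.14 CPM in all 10 libraries. Of 6 fibroblast markers, 5 were called higher, where 34.2% of all tested genes were (with total counts, 6 of 6 and 56.4%). Fibroblast sums were 80.9 to 112.9 CPM in controls and 375.8 to 1486 CPM in treated libraries. The part of these cells in the values of Anpep and Mme was not tested.

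The receptors came almost entirely from 1 gene. Mice carry a pair of type 1 receptor genes, Agtr1a and Agtr1b, whose coding sequences in the GENCODE M21 transcripts are the same at 90.8% of 1080 aligned bases. Agtr1b (ENSMUSG00000054988) had 1 count in control replicate 3, 2 counts in puberulic acid replicate 5 and 0 in the other 8 libraries. All are under the floor of 3 counts, which is 0.0964 to 0.195 CPM here and covers counting error only. It was not tested, and no difference was detectable at this depth. Agtr1b is expressed in the adrenal cortex, and the library with adrenal markers, puberulic acid replicate 3, had 0 counts of it. Those markers summed to only 54.4 CPM there, so a receptor of low level could go unseen.

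Agtr1a (ENSMUSG00000049115) encodes the main vascular and tubular type 1 receptor. It was at 33.0, 36.7, 35.4, 39.8 and 36.6 CPM in control replicates 1 to 5, the narrowest spread of any member there, with a coefficient of variation of 6.82%. With puberulic acid it was at 18.1, 8.05, 9.19, 8.68 and 12.05 CPM. Replicate 1 was the highest of the treated group and still below every control. Mean levels of 36.3 ± 2.47 CPM (control) and 11.2 ± 4.16 CPM (treated, SD over n = 5 per group) were 3.23-fold apart, a log2 fold change of -1.69 ± 0.20 (SE, edgeR adjusted p = 1.6e-05). Adding the counts of Agtr1b before the fit left the value at -1.69. How reads shared by the 2 copies were divided is not given in the sources used here.

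Mural cells of vessels are among those that express Agtr1a. Of 12 markers of juxtaglomerular and mural cells, Ren1 among them, 5 were called higher and 2 lower, against 34.2% and 31.1% of all tested genes. With total counts 6 were called higher and 1 lower, where 56.4% and 15.5% of all genes were. Without Ren1, the other 11 summed to 162.9 to 287.0 CPM in controls and to 347.3 to 886.2 CPM in treated libraries, with no overlap. When the contractile genes Acta2 and Tagln were also left out, both choices made after the values were seen, the sums were 128.3 to 196.1 CPM and 130.6 to 258.7 CPM and overlapped. The part of these cells in the decline of Agtr1a was not tested. Tagln and Acta2, which myofibroblasts also express, rose by log2 fold changes of 3.21 and 2.77 (edgeR adjusted p = 1.3e-05 and 6.53e-05). Agtr2, the type 2 receptor, was at or under 0.171 CPM in all 10 libraries and was not tested. Mas1, the receptor of the vasodilator angiotensin peptide, was at 0.584 to 1.18 CPM in controls and, in treated libraries, 0.204 to 1.19 CPM.

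The rest of the pathway was listed as 18 genes, of which 13 were tested, 7 were called lower and 3 higher, with a median log2 fold change of -0.28, against 31.1% of all tested genes lower and 34.2% higher. With total counts 4 were called lower and 6 higher, with a median of 0.23, where 15.5% of all genes were lower and 56.4% higher, with a median of 0.56. The largest declines were those of Lrp2, the endocytic receptor megalin, at -3.20 (edgeR adjusted p = 4.01e-07), and Klk1, tissue kallikrein, at -1.53 (edgeR adjusted p = 7.87e-05). Of the 3 that rose, Nln, the endopeptidase neurolysin, had a log2 fold change of 0.43 (edgeR adjusted p = 0.00949). Lnpep, which encodes the angiotensin IV-binding insulin-regulated aminopeptidase, had one of 0.36 (edgeR adjusted p = 0.00137). Its levels were 54.2 to 66.3 CPM in controls and, in treated libraries, 70.7 to 79.5 CPM, and the groups did not overlap. The mast cell enzymes Cma1 and Cpa3 reached at most 0.114 and 0.127 CPM in any library, and Ctsg had 0 counts in all of them.

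Peptidases of vasoactive peptides outside the brush border had 7 tested genes of 12 listed, with 2 called higher and 2 lower, near the 34.2% and 31.1% of all tested genes. Cpe, a carboxypeptidase of prohormone processing, rose from 49.3 ± 20.7 to 151.5 ± 43.0 CPM (SD over n = 5 per group), a log2 fold change of 1.62 (edgeR adjusted p = 0.000296). Nln is the other gene that rose on this list. Ece1, endothelin-converting enzyme, fell by 0.98 on the log2 scale (edgeR adjusted p = 9.39e-05), and Ide, insulin-degrading enzyme, fell by 0.74 (edgeR adjusted p = 8.15e-06).

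**Figure D4:**
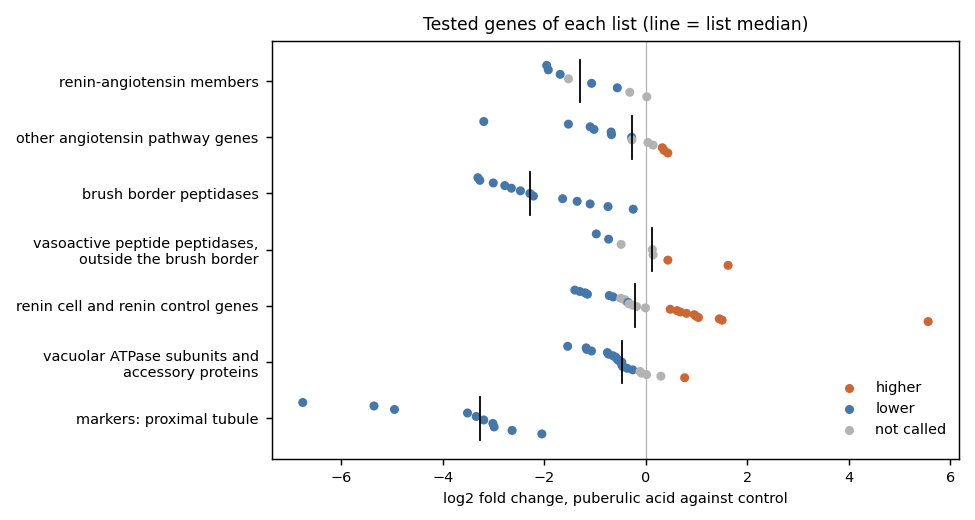
Log2 fold change of every tested gene in 7 lists, coloured by call, with a line at each list median. The members (median -1.30) lie between the brush border and tubular peptidases (median -2.29, labelled brush border peptidases) and the other pathway genes (median -0.28). Proximal tubule markers lie lowest (median -3.27).

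Atp6ap2 (ENSMUSG00000031007) encodes the prorenin receptor, which binds renin and prorenin and is also an accessory protein of the vacuolar proton pump. It was at 126.0, 136.3, 112.4, 121.3 and 128.6 CPM in control replicates 1 to 5. With puberulic acid it was at 89.7, 76.8, 82.8, 91.9 and 80.9 CPM. Every treated library lay below every control, and both groups were tight, with coefficients of variation of 7.10% and 7.41%. Mean levels of 124.9 ± 8.87 CPM (control) and 84.4 ± 6.26 CPM (treated, SD over n = 5 per group) were 1.48-fold apart, a log2 fold change of -0.57 ± 0.08 (SE, edgeR adjusted p = 6.69e-05). The call was lost with total-count scaling, where the log2 fold change was -0.057 (edgeR adjusted p = 0.53).

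Of 21 subunit and accessory genes of the proton pump, all tested, 16 were called lower, 1 was called higher and 4 were not called, with a median log2 fold change of -0.48, where 31.1% of all tested genes were lower and 34.2% higher. With total counts 5 of the 21 were called lower and 6 higher, with a median of 0.03, where 15.5% of all genes were lower and 56.4% higher, with a median of 0.56. The list median was thus below that of all genes under both scalings, while the number called lower depended on the scaling. Atp6v1c2 and Atp6v1b1, subunits enriched in intercalated cells of the collecting duct, fell by 1.54 and 1.18 on the log2 scale (edgeR adjusted p = 0.000119 and 7.92e-05). Atp6v1c1, the ubiquitous form of the C subunit, was the gene that rose, from 73.4 to 97.1 CPM in controls to 118.4 to 170.6 CPM in treated libraries, a log2 fold change of 0.76 (edgeR adjusted p = 0.000114). Atp6ap1, the other accessory protein, picked out after its values were seen, was at -0.65 (edgeR adjusted p = 6.01e-05), and at -0.14 with total counts (edgeR adjusted p = 0.19).

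The order of the 9 genes depends on the transcript length taken for each. Per kilobase of the longest coding transcript in GENCODE M21, mean control levels ran from 62.4 CPM per kilobase for Ren1, 54.9 for Anpep and 53.8 for Atp6ap2 down to 17.1 for Mme and 16.5 for Agtr1a, with Agtr1b last at 0.0059. The first 3 of that order do not differ beyond the spread of Ren1. Without control replicate 5 the control mean of Ren1 was 65.2 CPM in place of 99.3 CPM, so its first place rests on that library. With the median transcript length in place of the longest, Mme came first at 149.0 CPM per kilobase. With puberulic acid, Agt was first at 39.8 and Agtr1a was lowest of the tested genes at 5.10 CPM per kilobase of the longest transcript.

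**Figure D5:**
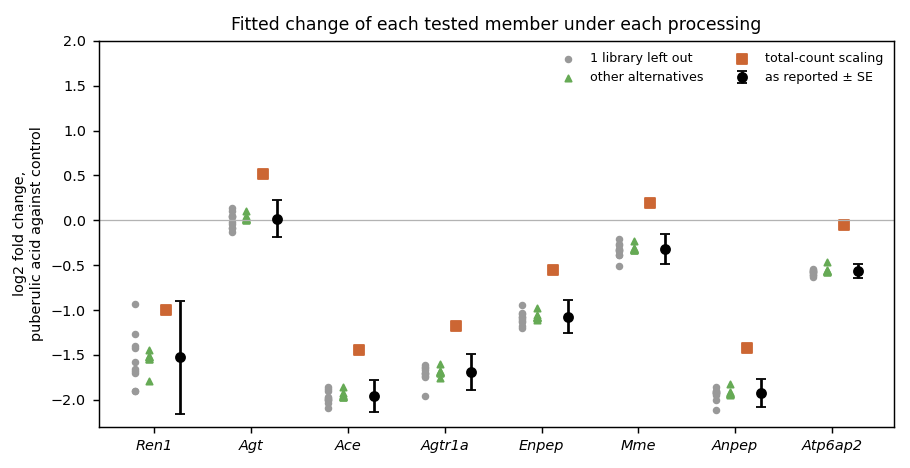
Fitted log2 fold change of each tested member as reported (black, ± SE), with 1 library left out (grey), with total-count scaling (square) and with the other alternatives (triangles). Ace, Agtr1a, Enpep and Anpep stay below 0 in all, Atp6ap2 moves to -0.057 with total counts, and Mme crosses 0 there.

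Promoter windows were matched by symbol in the RefSeq table for 8 of the 9 genes. The 250 bases before the start are shown for the 3 peptidases that fell, to set the sequence before their starts side by side. They are given 5′ to 3′ on the strand of the gene, in build GRCm38.p6, which is not the GRCm39 of the submitters' processing notes. Motifs found on either strand are in capitals. The windows are chr11:105967698-105967947 on the plus strand for the upstream start of Ace, chr3:129332750-129332999 on the minus strand for Enpep and chr7:79848211-79848460 on the minus strand for Anpep.
Ace: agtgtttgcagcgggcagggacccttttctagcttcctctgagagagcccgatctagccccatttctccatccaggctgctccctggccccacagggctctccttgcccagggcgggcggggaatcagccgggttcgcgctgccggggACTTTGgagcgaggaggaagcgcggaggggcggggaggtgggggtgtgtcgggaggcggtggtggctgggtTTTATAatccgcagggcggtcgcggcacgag
Enpep: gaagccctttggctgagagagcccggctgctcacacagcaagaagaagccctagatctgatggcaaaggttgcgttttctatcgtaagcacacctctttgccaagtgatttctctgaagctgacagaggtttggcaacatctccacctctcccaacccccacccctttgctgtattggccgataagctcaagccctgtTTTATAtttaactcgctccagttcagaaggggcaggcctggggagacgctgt
Anpep: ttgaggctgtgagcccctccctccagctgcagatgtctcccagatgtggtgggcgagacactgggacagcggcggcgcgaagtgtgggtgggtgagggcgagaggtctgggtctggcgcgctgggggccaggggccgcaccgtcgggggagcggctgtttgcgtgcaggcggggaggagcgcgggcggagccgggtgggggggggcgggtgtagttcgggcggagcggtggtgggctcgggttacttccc

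The motifs searched, on both strands and with no overlap between their matches here, were TATAAA (the core promoter box), GTTAAT (a half-site of the tubule factor HNF1), CAAAGT (a core of the tubule factor HNF4), TGACGTCA (the cAMP response element) and TGACCTCA (a near form of it). Background shares are per window and members are counted per gene, with 11 windows for the 8 genes. A TATAAA match is held by 12.4% of the 32851 windows of this length in the table and by 5 of the 8 genes, Ren1, Agt, Ace, Enpep and Agtr1b. In Ace it lies 31 to 26 bases before the start and in Enpep 52 to 47 bases before, both on the reverse strand. A CAAAGT match is held by 12.6% of windows and by Ace and Mme. The other 3 motifs are held by 6.43%, 1.55% and 1.94% of windows in the order given, and among the members only TGACCTCA was found, in a second, internal window of Ace. The Anpep window, at 72.8% G and C against 67.2% in Ace and 52.4% in Enpep, holds none of the 5 motifs. No motif was found in all 3 of the windows shown.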

How the data were processed

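The authors deposited gene-level estimated counts, which need not be whole, with no scaling stated. Per the submitters' processing notes, the tools were fastp 0.22.0, FastQC 0.12.1, MultiQC 1.28, Salmon 1.10.3 and DESeq2, with the build GRCm39. The annotation is not given in the sources used here. Per the labels' protocols, libraries were poly(A)-selected and directional. Of the sample columns, 10 were assigned by name to control and puberulic acid and 10 were not used. Symbols were matched for 51344 of 55822 identifiers.

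Estimated counts were rounded, filtered with filterByExpr, scaled with TMM and tested with the quasi-likelihood test of edgeR 4.0.16 (limma 3.58.1, R 4.3.3), 5 against 5 libraries, with Benjamini-Hochberg adjustment over 16266 genes and a threshold of 0.05. Each standard error was taken as |log2 fold change| over the root of its F statistic. The script was tested on simulated data. Deviations for likeness used log2(CPM + 1) of genes that averaged 5 CPM or more. From each list, the 2 called genes with the largest change in each direction and at least 1 CPM in 1 group were named. Of the marker lists, only some of these genes are named. The values of 1 of the 7 ratios and of 1 listed gene are not reported here. The members and lists were chosen with earlier results of these data known. Alternatives were other scalings, other filters, DESeq2 1.42.0, a robust fit, a replicate term and leaving out each library. Total-count scaling of the other gene lists was added after their values were seen.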

Additional observations from a re-analysis of the deposited data

Results flagged for a closer look

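Within each group of 5 libraries, the levels of the 8 tested members were searched for a library set apart from the next by more than 0.71 of the spread from lowest to highest. This occurred in 3 of 16 sets of 5 values, and chance gives about 1 in 20. Ren1 in control replicate 5, at 235.8 CPM, lay above the other controls by 0.801 of the range. Anpep in control replicate 1, at 168.2 CPM, lay below the other controls by 0.767 of the range. Mme in puberulic acid replicate 1, at 157.9 CPM, lay above the others of its group by 0.752 of the range.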

How the results depend on the processing

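Ace, Anpep, Agtr1a and Enpep were called lower under all 19 alternatives, with the ranges -2.10 to -1.45, -2.11 to -1.42, -1.96 to -1.18 and -1.20 to -0.56 on the log2 scale. All genes called ran from 9960 to 11844. Total-count scaling turned Mme to 0.19, ended the call of Atp6ap2 (-0.057) and called Agt higher (0.52), the 1 member called higher. Ren1 passed the threshold with RLE size factors (-1.54), without mitochondrial and the 10 most abundant genes (-1.53), with no filter (-1.51) and with DESeq2 (-1.545). It did not pass with total counts (-1.003, edgeR adjusted p = 0.17), upper-quartile factors (0.0602), a 1 CPM filter (0.0515) or a robust fit (0.0787). With 1 library left out, Ren1 ran from -1.90 to -0.93, Mme from -0.51 to -0.21, Agt from -0.13 to 0.13 and the log2 ratio of Ace to Anpep from -0.16 to 0.12. Apart from the removal of named libraries, the cause was not tested.

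No pairing by replicate number was seen, though 5 pairs are too few to settle it. Same-numbered libraries had a mean correlation of deviations of -0.036 over the 5 pairs, against 0.0052 for other pairs. Of the same-numbered pairs, 0 correlated best with their own number in both directions. With the replicate block, Ren1 was at -1.79 (edgeR adjusted p = 0.0123) and Mme at -0.33 (edgeR adjusted p = 0.0135), so 7 members were called lower. With the block, 4909 of all 16266 tested genes were called lower and 10325 in either direction. Depth limits Agtr1b and Agtr2, which were too low to test.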
